A study of Mus musculus with 9 samples.

Results

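Kinesins are motor proteins that walk along microtubules or shorten their ends, using the energy of ATP. Some members act when a cell divides: they build the spindle, move and align chromosomes and cut the daughter cells apart, and their mRNAs are known to be most abundant around mitosis. Others carry vesicles, organelles and RNA along the microtubules of cells whether or not they divide. The genes of this motor family were taken by name, as all listed genes called Kif with a number and at most one further letter or Kifc with a digit, which gave 41 of the 54532 genes measured. They were divided by known role into 12 mitotic kinesins, 15 transport kinesins and 14 other kinesins, most of which act at cilia, at microtubule ends or in signalling.

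RNA sequencing covered 9 libraries of B.END3, a mouse line labelled as brain microvessel endothelial cells of strain C57BL/6: 3 of untreated cells (Ctrl), 3 at a light dose of 10 J/cm2 (Ep1) and 3 at 20 J/cm2 (Ep2). Photodynamic therapy (PDT) consisted of porfimer sodium, a photosensitizer that forms reactive oxygen species under light, at 300 µg/mL for 90 min, followed by a laser of 635 nm at 100 mW/cm2. The time from the laser to the harvest of RNA is not given in the sources used here. The comparisons show how the mRNAs of the motor family differed between cells without PDT and cells at either light dose. Photosensitizer alone and light alone were not sequenced in the libraries used here, so their parts in any difference cannot be told apart, and the labels do not say whether the libraries of a group came from separate cultures, so the p-values measure the spread between these libraries, which may be technical.

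Levels are given in FPKM, the fragments on a gene divided by its length and by the size of the library, and can therefore be compared between genes. A gene was tested if it reached 1 FPKM in at least 3 libraries, and differences are log2 fold changes of FPKM + 1 from limma. The value after ± is the SD of 3 libraries for a level and the standard error (SE) for a fold change. Fold changes of weakly expressed genes are understated on this scale. A gene was called lower or higher at a Benjamini-Hochberg adjusted p below 0.05 over all 11727 tested genes, and was a DEG if its log2 fold change also exceeded 0.6 in size. Of the kinesin genes, 29 were tested: all 12 mitotic members, 11 of 15 transport members and 6 of 14 others. The 9 libraries held 16240688 to 19509225 fragments on genes, and tested members rested on 70 to 6003 fragments in a library.

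The defining genes of endothelial cells were mostly low in these libraries. Of 12 endothelial markers 9 stayed under 1 FPKM in every library, Pecam1, Kdr, Tek, Tie1 and Cldn5 among them, and Emcn and Erg were listed at 0 throughout. Flt1 was the strongest, at 6.90 FPKM in Ctrl and 10.9 in Ep2 on average. In contrast, the epithelial keratins Krt8, Krt18 and Krt19 averaged 640, 237 and 174 FPKM in Ctrl. The 8 epithelial markers summed to 1029 to 1081 FPKM in Ctrl, 937 to 1041 in Ep1 and 1155 to 1372 in Ep2, 4 of them under 1 FPKM in every library and Krt5 and Krt7 at 0. The epithelial markers Epcam and Cdh1 averaged 0.812 and 0.0338 FPKM in Ctrl. Of 8 fibroblast and mural markers, Col3a1 and Col1a1 averaged 35.3 and 7.21 FPKM in Ctrl, and 6 stayed under 1 FPKM in every library. The cells are therefore called B.END3 cells here and not endothelial cells. The summed epithelial markers were higher in Ep2 than in Ctrl. The mitochondrial share of fragments was above Ctrl at both doses (1.90% to 1.99% in Ctrl, 1.997% to 2.08% in Ep1 and 2.04% to 2.49% in Ep2). The part of either in the results was not tested. In bulk RNA, fewer cells in mitosis and less of a mitotic mRNA in each cell cannot be told apart.

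At 20 J/cm2, every member of the mitotic class fell, and more of the tested transport kinesins rose than fell. The classes were set with earlier results of these data known. Kif2a, which acts in dividing and non-dividing cells, was placed among the other kinesins and rose (0.48 ± 0.07). All 12 mitotic members were lower in Ep2 than in Ctrl, where 29.3% of all tested genes were lower (3436 lower and 2800 higher, or 2971 and 3311 after centring each library on its median), and 11 of them were DEGs, where 5.87% of all tested genes were lower DEGs. In all 12 the Ep2 libraries lay wholly below the Ctrl libraries, as they did for 32.7% of all tested genes. Of the 11 tested transport kinesins, 6 rose and 1 fell, against 23.9% of all tested genes that were higher. None of the 6 passed the fold change threshold on the FPKM + 1 scale, which 3.3% of all tested genes did upward, but Kif5c passed it with a pseudocount of 0.1 and with voom on fragments, where its value reached 0.76. The median log2 fold change was -0.71 over the mitotic members and 0.23 over the tested transport members, and -0.03 over all tested genes. The difference between the class medians was -0.94 in Ep2 and 0.01 in Ep1.

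**Figure D1:**
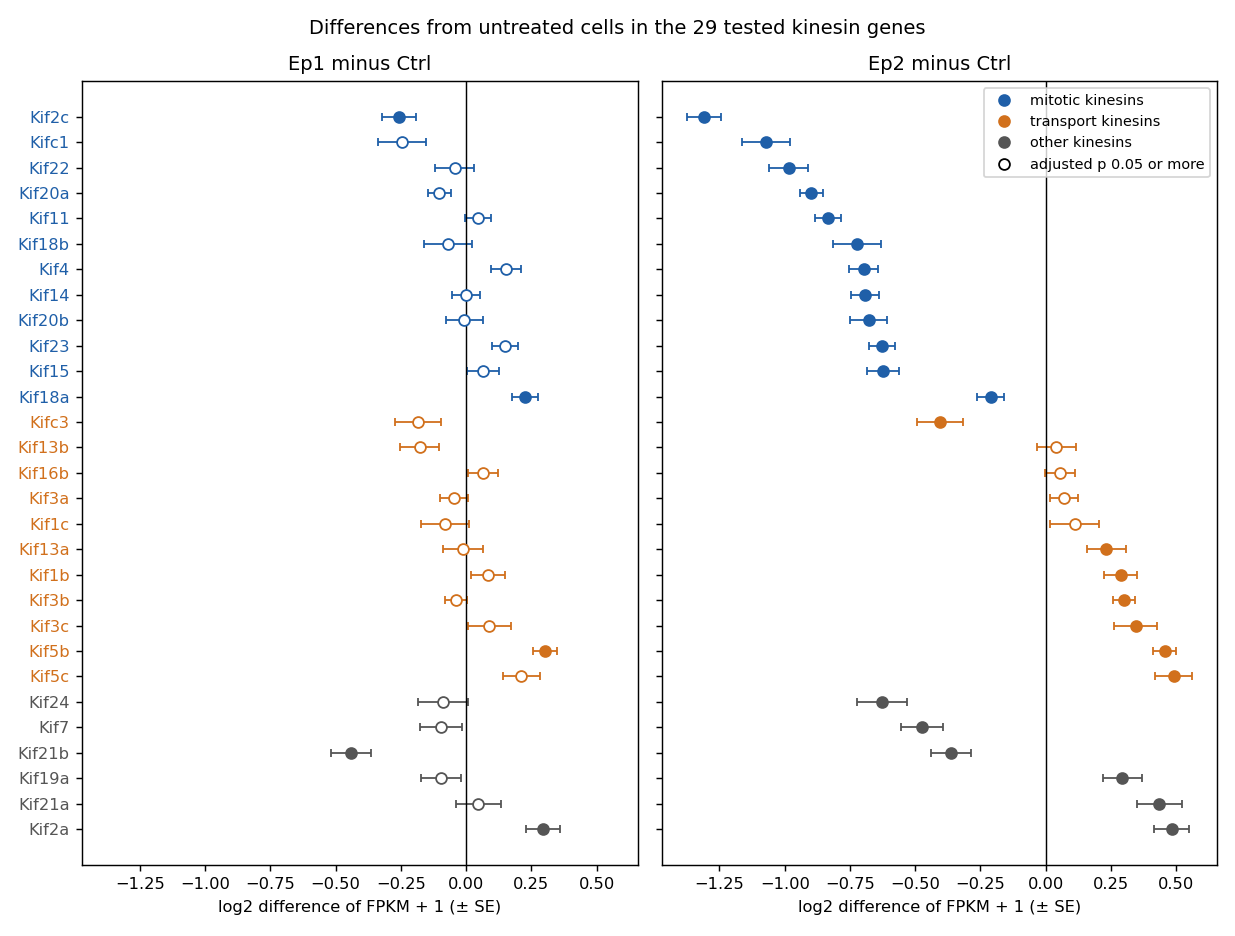
Log2 fold change of FPKM + 1 against Ctrl for the 29 tested kinesin genes, at 10 J/cm2 (left) and 20 J/cm2 (right), with SE bars from limma over 3 libraries a group; colours mark the class and open circles an adjusted p of 0.05 or more. On the right all 12 mitotic members lie left of 0, from -1.31 to -0.21, and 10 of 11 transport members lie right of it, while on the left most members lie near 0.

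Summed over the mitotic kinesins, untreated cells held 223 ± 3.55 FPKM, Ep1 cells 213 ± 9.17 and Ep2 cells 117 ± 5.79 (SD over 3 libraries). The sum over the tested transport kinesins was 100.2 ± 0.553, 105 ± 2.80 and 120 ± 7.65 FPKM. Mitotic motors thus made up 59.3% ± 0.443 of the kinesin mRNA in untreated cells by FPKM, 57.0% ± 1.84 in Ep1 and 38.5% ± 1.08 in Ep2. The ratio of mitotic to transport sums went from 2.23 ± 0.036 in Ctrl to 2.02 ± 0.137 in Ep1 and 0.976 ± 0.022 in Ep2. The order of the genes shifted with it. Kif20a was the most abundant kinesin in Ctrl and Ep1, at 44.7 and 41.6 FPKM. It ranked 4 in Ep2, below Kif5b, Kif21a and Kif1c, of which Kif5b and Kif21a, at 41.1 ± 1.35 and 40.98 ± 5.41 FPKM, did not differ beyond their spread.

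**Figure D2:**
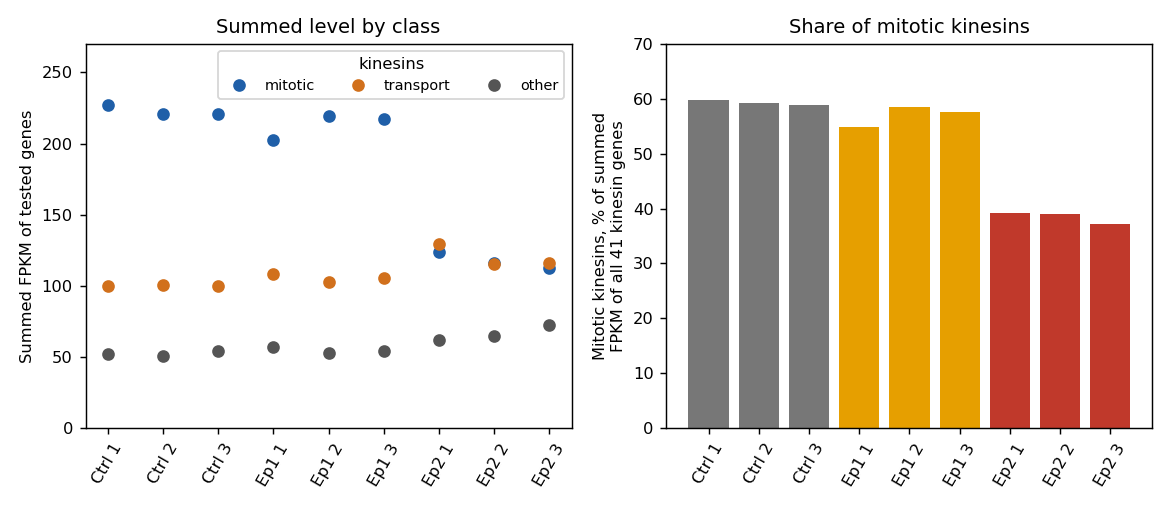
Left, summed FPKM of the tested mitotic, transport and other kinesins in each of the 9 libraries; right, mitotic kinesins as a percentage of the summed FPKM of all 41 kinesin genes, coloured by group. The mitotic sum lies between 203 and 227 FPKM in the Ctrl and Ep1 libraries and between 112 and 124 in Ep2, and the mitotic share is 37.3% to 39.2% in Ep2 against at least 54.9% in the other libraries.

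Among the motors that build and shape the spindle, Kif2c had the largest fall. Kif2c (ENSMUSG00000028678, GRCm38 chromosome 4, 117159639 to 117182639) takes microtubule ends apart and so corrects faulty attachments of chromosomes. It was measured at 21.6, 20.8 and 20.0 FPKM in the Ctrl libraries, at 15.9, 18.1 and 17.8 in Ep1, and at 7.39, 8.48 and 7.55 in Ep2. The 3 groups did not overlap, with Ep1 between the others. Its mean level fell by 62.5% from Ctrl to Ep2 (log2 fold change -1.31 ± 0.06, limma adjusted p = 2.17e-06). Kif11 (ENSMUSG00000012443, chromosome 19, 37376403 to 37421859), the motor that pushes the spindle poles apart, was at 27.8, 27.5 and 29.3 FPKM in Ctrl, 27.6, 29.2 and 30.6 in Ep1 and 15.5, 14.8 and 15.8 in Ep2. Here Ctrl and Ep1 overlapped, and the Ep2 libraries stood apart below both (-0.83 ± 0.05, adjusted p = 4.29e-06).

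Kif15, which can keep the poles apart when Kif11 is blocked, was at 4.27 ± 0.152 FPKM in Ctrl, 4.51 ± 0.230 at the lower dose and 2.43 ± 0.187 at the higher dose (-0.62 ± 0.06 against Ctrl). Kifc1, a minus-end motor that gathers microtubules at the poles, was at 38.8, 35.7 and 34.8 FPKM in Ctrl, 29.3, 32.4 and 30.01 in Ep1 and 19.2, 17.2 and 14.4 in Ep2. Its 3 groups did not overlap. The fall of Kifc1 at 20 J/cm2 was -1.07 ± 0.09 (adjusted p = 2.04e-05), while its value of -0.25 in Ep1 was not called (adjusted p = 0.112), although it was without Ep2 replicate 1 or Ep2 replicate 3 (adjusted p = 0.0445 and 0.0355), with only the groups compared in the fit (0.0248) and with voom (0.0374). A near-identical gene, Kifc5b, was also listed, so reads may have been divided between the pair and the level of Kifc1 is uncertain.

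The motors of chromosome movement followed. Kif22, which pushes chromosome arms away from the poles, went from 18.2 ± 0.580 FPKM in Ctrl to 8.72 ± 0.895 in Ep2 (-0.98 ± 0.07, adjusted p = 1.11e-05). Kif4, which binds chromosomes and organizes the central spindle, was at 9.75 ± 0.508 FPKM in Ctrl and 5.63 ± 0.360 in Ep2 (-0.70 ± 0.06). Kif18b, a motor of the outer spindle microtubules, was at 27.3 ± 1.10 FPKM in Ctrl and 16.2 ± 2.61 in Ep2 (-0.72 ± 0.09), and its Ep2 libraries spread more widely than most, from 14.0 to 19.1. Kif18a, which damps the swinging of aligned chromosomes, was called in both directions. It was at 3.62, 3.69 and 3.57 FPKM in Ctrl, 4.25, 4.66 and 4.32 in Ep1 and 3.07, 2.96 and 2.96 in Ep2, so that Ep1 lay above and Ep2 below Ctrl with no overlap. The rise in Ep1 was 0.23 ± 0.05 (adjusted p = 0.0274), but 0.09 and not called with a correction for length and GC content (adjusted p = 0.39), and the fall in Ep2 was -0.21 ± 0.05 (adjusted p = 0.00709), the smallest of the mitotic members.

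The motors of the midzone and of cytokinesis fell as well. Kif20a, which carries the chromosomal passenger complex to the midzone, was at 45.9, 43.9 and 44.4 FPKM in Ctrl, 39.5, 43.0 and 42.4 in Ep1 and 24.1, 23.6 and 22.97 in Ep2. The mean fell by 47.4% from Ctrl to Ep2, and the Ep2 libraries were close to each other (-0.90 ± 0.04, adjusted p = 2.17e-06). Kif23, a subunit of the centralspindlin complex that bundles midzone microtubules, was at 12.1, 12.1 and 12.3 FPKM in Ctrl, 13.1, 14.4 and 13.4 in Ep1 and 7.79, 7.64 and 7.16 in Ep2. Ep1 lay above Ctrl without being called (0.15 ± 0.05, adjusted p = 0.0779), and Ep2 lay below both (-0.63 ± 0.05, adjusted p = 1.35e-05). Kif14 and Kif20b, both needed for the final cut, were at 4.13 ± 0.068 and 13.3 ± 0.589 FPKM in Ctrl and at 2.18 ± 0.116 and 7.95 ± 0.744 in Ep2, with log2 fold changes of -0.69 and -0.68.

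**Figure D3:**
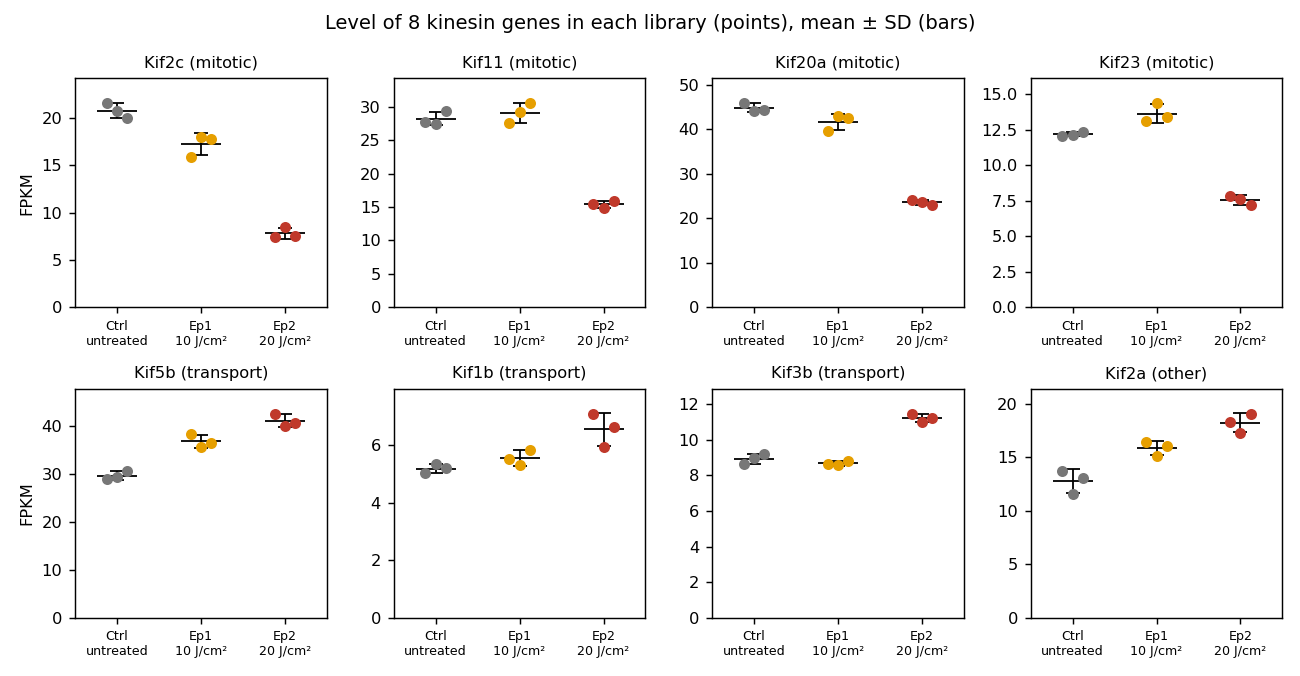
FPKM of 8 kinesin genes in each library (points) with the mean and SD of 3 libraries (black bars), for Ctrl, Ep1 and Ep2, each axis starting at 0. Kif2c, Kif11, Kif20a and Kif23 are lowest in the 3 Ep2 libraries, and Kif5b, Kif1b, Kif3b and Kif2a are highest there.

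Because 11 of 12 mitotic members moved together as lower DEGs, their promoters were read for the CHR (cell cycle genes homology region), a short element known from promoters of genes that peak in G2 and mitosis, and for the CCAAT box that often stands upstream of it. RefSeq windows of GRCm38.p6, from 250 bases before to 50 bases after a start, were matched by symbol for 32 of 41 kinesin genes and 23 of the 29 tested. The tested genes without a window were Kif20a, Kif5b, Kif13b, Kif19a, Kif21b and Kifc3, the transport member that fell in Ep2. The CHR was searched as TTTGAA or TTCGAA and the CCAAT box as CCAAT, on both strands, and a gene with several windows counted if any held a match. The first group of stretches shows the bases just before the RefSeq start in mitotic members, with Kif18a as the member without a CHR match. The second group shows Kif24, a kinesin of another class that was also a lower DEG, and a pair of transport kinesins. Capitals mark CHR and CCAAT matches, and all are written 5′ to 3′ on the strand of the gene.
Kif11 (chr19:37376262-37376381, + strand): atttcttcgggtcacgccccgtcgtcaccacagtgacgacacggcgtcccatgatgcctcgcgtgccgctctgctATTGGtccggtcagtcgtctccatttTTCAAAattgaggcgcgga
Kif15 (chr9:122951051-122951080, + strand): ggggcgccaaaTTCAAAtctgcggccatct
Kif22 (chr7:127042421-127042450, - strand): ggggccccggtaaTTCAAAagagagaagcg
Kif18a (chr2:109280618-109280737, + strand): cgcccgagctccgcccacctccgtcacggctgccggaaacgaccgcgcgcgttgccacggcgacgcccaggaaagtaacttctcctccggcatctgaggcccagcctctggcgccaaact
Kif24 (chr4:41464849-41464878, - strand): cgcgTTCGAActggcgcttgtggcgttgcc
Kif3a (chr11:53567249-53567368, + strand): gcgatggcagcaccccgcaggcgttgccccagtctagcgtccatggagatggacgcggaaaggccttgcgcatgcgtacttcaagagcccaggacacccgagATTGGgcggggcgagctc
Kif5c (chr2:49619166-49619285, + strand): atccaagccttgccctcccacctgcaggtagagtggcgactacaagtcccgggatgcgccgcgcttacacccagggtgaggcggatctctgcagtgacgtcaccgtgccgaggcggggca

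A CHR match was present in 10 of the 11 mitotic genes with a window and in none of the 8 tested transport genes with one. It was present in 19.2% of all 32851 RefSeq windows of the same length. Its first base lay at -19 in Kif11 and Kif15, at -17 in Kif22, and just behind the start, at 2 to 20, in Kifc1, Kif23, Kif18b, Kif20b and Kif4. In Kif2c and Kif14 it lay farther upstream, at -103 and -228. The RefSeq starts of Kif2c, Kif14 and Kif4 are 3867, 1505 and 328 bases inside the genes as listed in the data, so these windows may not be the starts used in B.END3 cells. Those of Kif15, Kif22, Kif24 and Kifc1 are 35, 51, 39 and 28 bases inside. The printed stretches of Kif15, Kif22 and Kif24 therefore lie within the genes as listed, and their matches are upstream of the RefSeq start only. Kif18a was the mitotic member without a match in its window. Whether a match goes with the size of a fall was not tested. Of the 4 other tested kinesins with a window, Kif24 alone had a CHR match, at -26. Kif7, which also fell in Ep2 (-0.47), had none, nor had Kif21a and Kif2a, which rose. A CCAAT box was found in 7 of 11 mitotic genes, 3 of 8 tested transport genes and 37.4% of all windows. Both motifs occurred together in 7 of the 11 mitotic genes, in none of the 8 tested transport genes, in Kif24 among the other tested genes, and in 7.53% of all windows. Among untested members, a CHR match occurred in Kif1a, Kif26b and Kif27, the latter pair with a CCAAT box as well. These are matches of letters and were not tested for binding.

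**Figure D4:**
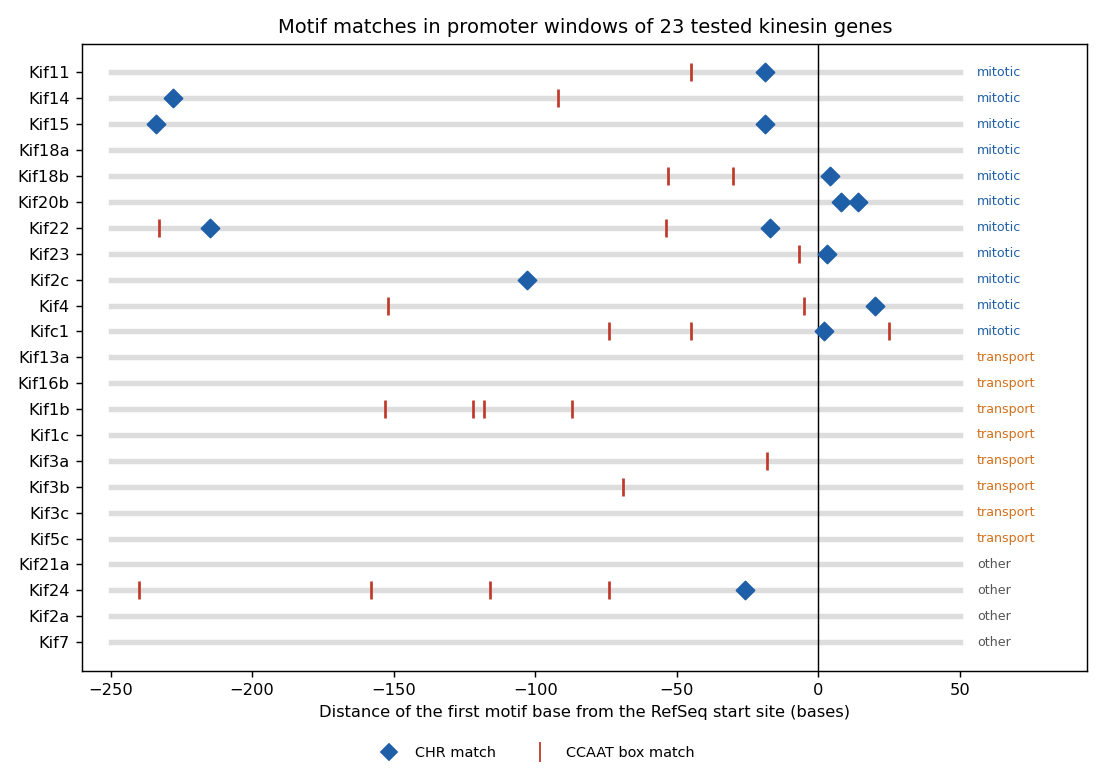
Position of CHR (diamonds) and CCAAT box (bars) matches in the RefSeq promoter windows of 23 tested kinesin genes, as the distance of the first motif base from the start site in bases; grey lines span each window from 250 bases before to 50 after the start. CHR matches are seen in 10 of 11 mitotic genes and in Kif24, and in none of the 8 transport genes.

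Among the transport motors, the heavy chains of conventional kinesin rose. Kif5b (ENSMUSG00000006740), the widely expressed heavy chain that carries mitochondria, vesicles and RNA, was at 29.03, 29.3 and 30.7 FPKM in Ctrl, 38.3, 35.6 and 36.5 in Ep1 and 42.6, 40.0 and 40.6 in Ep2. The 3 groups did not overlap. Kif5b rose by 24.1% in Ep1 (0.30 ± 0.04, limma adjusted p = 0.00823) and by 38.5% in Ep2 (0.46 ± 0.04, adjusted p = 4.03e-05). Its relative Kif5c was weakly expressed, at 1.32, 1.51 and 1.49 FPKM in Ctrl, 1.93, 1.79 and 1.74 in Ep1 and 2.56, 2.51 and 2.22 in Ep2. These groups did not overlap either. Kif5c had the largest rise on the log2 scale among transport members in Ep2 (0.49 ± 0.07, adjusted p = 0.000377), and in Ep1 its value of 0.21 was not called (adjusted p = 0.085), although it was with voom (adjusted p = 0.0455). Kif5a, the heavy chain of neurons, stayed between 0.0223 and 0.123 FPKM.

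The motor subunits of heterotrimeric kinesin, which also drives transport into cilia, were called in part. Kif3b was at 8.63, 9.0 and 9.19 FPKM in Ctrl, 8.63, 8.59 and 8.81 in Ep1 and 11.5, 10.99 and 11.3 in Ep2, and rose in Ep2 (0.30 ± 0.04, adjusted p = 0.000324). Its partner Kif3a was at 10.98 ± 0.175, 10.6 ± 0.198 and 11.6 ± 0.868 FPKM and was not called in Ep2 (0.07 ± 0.05, adjusted p = 0.305). Kif3c was at 2.59 ± 0.119 FPKM in Ctrl and 3.56 ± 0.252 in Ep2 and rose (0.35 ± 0.08). Whether Kif3a and Kif3b differ in their change was not tested.

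Of the motors of vesicles and endosomes, Kif1b, which moves mitochondria and precursors of synaptic vesicles, was at 5.02, 5.32 and 5.19 FPKM in Ctrl, 5.51, 5.30 and 5.83 in Ep1 and 7.09, 5.95 and 6.61 in Ep2. Ctrl and Ep1 overlapped, and Ep2 lay above both (0.29 ± 0.06 against Ctrl, adjusted p = 0.0043). Kif13a, an endosome motor, was at 3.92 ± 0.196 FPKM in Ctrl and 4.79 ± 0.569 in Ep2, a rise of 0.23 ± 0.08 with an adjusted p of 0.0265. That call was lost without Ctrl replicate 1 or 3 or Ep2 replicate 1 or 3, with adjusted p-values from 0.0514 to 0.0898, without a filter (0.0675) and with only the groups compared in the fit (0.0543). Kif1c, a motor of vesicle transport and the third most abundant kinesin in Ep2, was not called (0.11 ± 0.09, adjusted p = 0.342). Its Ep2 libraries spread from 25.4 to 34.2 FPKM, and without Ep2 replicate 1 the value was -0.01. Kif13b and Kif16b, further motors of vesicles and early endosomes, were not called in Ep2 either (0.04 and 0.06). Kifc3, a minus-end motor active at cell junctions and in apical transport, was the transport member that fell, from 4.12, 3.39 and 3.21 FPKM in Ctrl and 2.91, 2.94 and 3.18 in Ep1 to 2.52, 2.68 and 2.15 in Ep2 (-0.41 ± 0.09, adjusted p = 0.00378). Over the tested transport members, the Ep2 libraries lay wholly above Ctrl for 6 and wholly below for 1, against 27.0% of all tested genes wholly above. Kif17 (0.0669 to 0.342 FPKM), Kifc2 (0.0459 to 0.138) and Kif1a (0 in every library) were not tested.

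The 6 other tested kinesins divided evenly in Ep2, with 3 lower and 3 higher, against 29.3% and 23.9% of all tested genes. Kif24, a centriole protein that takes microtubules apart and restrains cilia, was at 1.39, 1.69 and 1.51 FPKM in Ctrl, 1.37, 1.5 and 1.27 in Ep1 and 0.622, 0.507 and 0.789 in Ep2. Ctrl and Ep1 overlapped and Ep2 stood apart, which made Kif24 the DEG of this group (-0.63 ± 0.10, adjusted p = 0.000516). Its value was smaller than the DEG threshold after median centring and without Ctrl replicate 2 or Ep2 replicate 2, at -0.57 in the last of these, and stayed called. Kif7, a regulator of Hedgehog signalling at the tip of cilia, fell from 2.82 ± 0.142 to 1.76 ± 0.207 FPKM (-0.47 ± 0.08). Kif21b, which restrains microtubule growth, was at 4.12, 4.71 and 3.92 FPKM in Ctrl, 2.98, 2.80 and 2.78 in Ep1 and 3.44, 2.90 and 2.91 in Ep2. It fell at both doses, by 0.44 ± 0.08 in Ep1 (adjusted p = 0.0114) and by 0.36 ± 0.08 in Ep2 (adjusted p = 0.00311) on the log2 scale, and Ep1 and Ep2 overlapped. The fall in Ep1 was not called without Ctrl replicate 2 or Ep1 replicate 3 (adjusted p = 0.0533 and 0.0520).

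Kif2a, a close relative of Kif2c that takes microtubule ends apart in dividing and non-dividing cells, moved the opposite way to Kif2c. It was at 13.7, 11.6 and 13.1 FPKM in Ctrl, 16.4, 15.2 and 16.1 in Ep1 and 18.3, 17.3 and 19.1 in Ep2, with no overlap between groups. The rise was 0.29 ± 0.07 in Ep1 (adjusted p = 0.026) and 0.48 ± 0.07 in Ep2 (adjusted p = 0.000266). The call in Ep1 was lost without Ctrl replicate 2, Ep1 replicate 1 or Ep1 replicate 3 (adjusted p = 0.0920, 0.0884 and 0.0904), without a filter (0.0793) and with the correction for length and GC content, where the value was 0.18 (0.115). Kif21a, the relative of Kif21b that anchors at the cell cortex, rose in Ep2 from 29.9 ± 1.51 to 40.98 ± 5.41 FPKM (0.44 ± 0.09), while Kif21b fell. Kif19a, which limits the length of cilia, rose from 1.15 ± 0.043 to 1.64 ± 0.115 FPKM (0.29 ± 0.08). Kif6, Kif26b, Kif27, Kif26a and Kif9 stayed under 1 FPKM throughout, with highest values of 0.197, 0.0513, 0.150, 0.060 and 0.063. Kif2b reached 1 fragment in a single library, and Kif28 and Kif12, like Kif1a, had no fragment in any, which allows up to 3 fragments in each library by counting error alone.

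At 10 J/cm2, few kinesins differed from Ctrl. Of the 12 mitotic members, Kif2c was lower (-0.26 ± 0.06, adjusted p = 0.0354) and Kif18a higher, where 4.97% of all tested genes were lower and 6.32% higher. Neither call held when any single library of the 3 Ctrl or 3 Ep1 libraries was left out: adjusted p-values ran from 0.0510 to 0.117 for Kif2c and from 0.0613 to 0.0920 for Kif18a. Without a filter they were 0.104 and 0.067. Over all tested genes, 78 to 459 were called lower and 111 to 575 higher in those fits without a library, against 583 and 741 with all libraries. In the transport class Kif5b was the gene called, and its call held without each library. In the third class Kif21b was lower and Kif2a higher. The other 24 tested members had values between -0.25 and 0.21 and were not called, which does not show that they were unchanged.

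The difference between the doses was tested directly. All 12 mitotic members were lower in Ep2 than in Ep1, where 25.2% of all tested genes were lower, with log2 fold changes from -1.05 for Kif2c to -0.44 for Kif18a. Of the 11 transport members, 7 were higher in Ep2 than in Ep1, where 18.8% of all tested genes were higher, and none was lower. After centring each library on its median, 2383 genes were lower and 2974 higher, in place of 2950 and 2206, so the balance of calls between the doses depends on the scaling. The mitotic count was 12 under it as well, and the transport count was 8. The 7 transport genes were Kif3b, Kif1b, Kif13b, Kif13a, Kif3c, Kif5c and Kif5b. The number of transport members called was 3 when either Ep1 replicate 2 or Ep1 replicate 3 was left out and 4 when Ep2 replicate 1 was. Kif3b had the smallest adjusted p (0.34 ± 0.04, adjusted p = 0.000248), and its call and that of Kif5c held without each library. The call of Kif5b was lost without Ep1 replicate 2 or 3, that of Kif1b without Ep1 replicate 1 or 2 or Ep2 replicate 1 or 3, and that of Kif13a without Ep1 replicate 1 or 3 or Ep2 replicate 1 or 3. The call of Kif3c was lost without Ep1 replicate 2 or 3 or Ep2 replicate 1 or 2, and that of Kif13b without Ctrl replicate 2, Ep1 replicate 2 or 3 or Ep2 replicate 2 or 3. Over these 5 genes the adjusted p-values of the lost calls ran from 0.0584 to 0.132. The calls of Kif1b, Kif13a, Kif3c and Kif13b were also lost without a filter (0.0685 to 0.0906) and with only the groups compared in the fit (0.0519 to 0.062), and those of Kif1b and Kif13b with the length and GC correction (0.0894 and 0.0577). Among the others, Kif7 and Kif24 were lower, Kif19a, Kif2a and Kif21a were higher, and Kif21b was not called (adjusted p = 0.429). The call of Kif2a was lost without Ctrl replicate 3, any Ep1 replicate, or Ep2 replicate 1 or 3 (adjusted p from 0.0551 to 0.138) and without a filter (0.106), and the uncalled Kif1c and Kifc3 were called without Ep2 replicate 3 and Ctrl replicate 1, at adjusted p-values of 0.0313 and 0.0429. Kifc3 was also called lower with voom (0.0486), and Kif3a higher after median centring (0.0277). The comparisons of Ep1 and of Ep2 with Ctrl use the same Ctrl libraries, so their values stand side by side here and were not correlated.

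The mRNAs of proteins that work with mitotic kinesins fell as well. Of 22 tested partners, kinases, passengers and spindle proteins, all 22 were lower in Ep2 than in Ctrl, 15 of them as DEGs, against 29.3% and 5.87% of all tested genes. The list was chosen with earlier results of these data known, and it holds Cenpe, itself a kinesin. Stard9, a spindle motor, was counted among the transport partners. It was not called in Ep2, where its libraries lay wholly above Ctrl (0.08, limma adjusted p = 0.329). The median of the 22 partners was -0.75 on the log2 scale. The smallest adjusted p-values were those of Psrc1, a spindle protein that recruits kinesins that shorten microtubules (6.22 ± 0.163, 5.15 ± 0.444 and 1.77 ± 0.121 FPKM in Ctrl, Ep1 and Ep2, -1.38 ± 0.07, adjusted p = 2.02e-06), and Plk1, a master kinase of mitosis (68.8 ± 2.83, 65.8 ± 1.59 and 31.0 ± 3.16 FPKM, -1.13 ± 0.07, adjusted p = 4.03e-06). In Ep1 none was called lower and Ect2, the activator of RhoA in cytokinesis, was higher (0.18, adjusted p = 0.0305). Of all tested genes 4.97% were lower and 6.32% higher in Ep1. Psrc1 stood at the threshold in Ep1 (-0.23, limma adjusted p = 0.05), with its libraries wholly below Ctrl.

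The partners of transport kinesins were mixed. Of 20 tested adaptors, light chains and regulators, 7 were higher in Ep2 and 3 lower, against 23.9% and 29.3% of all tested genes, and the median was 0.05. Arl8b and Arl8a, small GTPases that couple kinesins to lysosomes, had the smallest adjusted p-values among those higher (28.1 ± 1.90 against 18.2 ± 0.699 FPKM, 0.60 ± 0.05, adjusted p = 2.51e-05, and 37.8 ± 1.43 against 28.1 ± 1.05 FPKM, 0.42 ± 0.05, adjusted p = 0.000117). Rhot2, the mitochondrial GTPase that anchors the motor complex, Madd, an adaptor of Kif1b cargo, and Klc2, a light chain, were lower (-0.45, -0.18 and -0.20). The light chains Klc1 and Klc4 were not called (0.02 each). In Ep1 Arl8b and Trak2, a mitochondrial adaptor, were higher (0.21 each, adjusted p = 0.0383 and 0.040), where 6.32% of all tested genes were higher.

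Dynein and dynactin, the machinery that walks toward the other end of the microtubule, also moved in both directions. Of 20 tested genes 9 were higher and 5 lower in Ep2, with a median of 0.05, against 23.9% and 29.3% of all tested genes, so that the lower count was near the background. By adjusted p, Dynlt3, a light chain, and Dync1i2, an intermediate chain, led those higher (0.50 ± 0.05 and 0.40 ± 0.04). Nde1, a dynein regulator active in mitosis, and Dynll2, a light chain, led those lower (-0.50 ± 0.04 and -0.38 ± 0.04). Nde1 fell while its relative Ndel1 rose (0.44). In Ep1 Nde1 and Dynlt1b were lower, and Ndel1 and Pafah1b1, the dynein cofactor Lis1, were higher. Of all tested genes 4.97% were lower and 6.32% higher in Ep1.

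Tubulins form the track. Of 11 tested genes 6 were lower and 2 higher in Ep2, against 29.3% and 23.9% of all tested genes, with a median of -0.57, and the summed level of the listed tubulins was 2370 to 2534 FPKM in Ctrl, 2359 to 2443 in Ep1 and 1594 to 1733 in Ep2. The abundant Tuba1b was at 745 ± 40.6 FPKM in Ctrl and 409 ± 14.8 in Ep2 (-0.86 ± 0.06, adjusted p = 5.91e-06), and Tubg1, the tubulin that seeds microtubules at centrosomes, at 46.4 ± 2.75 and 25.3 ± 0.853 (-0.85 ± 0.05, adjusted p = 3.56e-06). Tubb2b and Tubb2a rose (0.74 ± 0.14 and 0.41 ± 0.12), with 14.3 ± 3.23 and 20.7 ± 4.05 FPKM in Ep2. Tubulin genes are close copies of each other, so the authors' counting may have divided reads between them. In Ep1 Tubg1 was the tubulin called, at -0.22 (adjusted p = 0.0274), where 4.97% of all tested genes were lower.

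**Figure D5:**
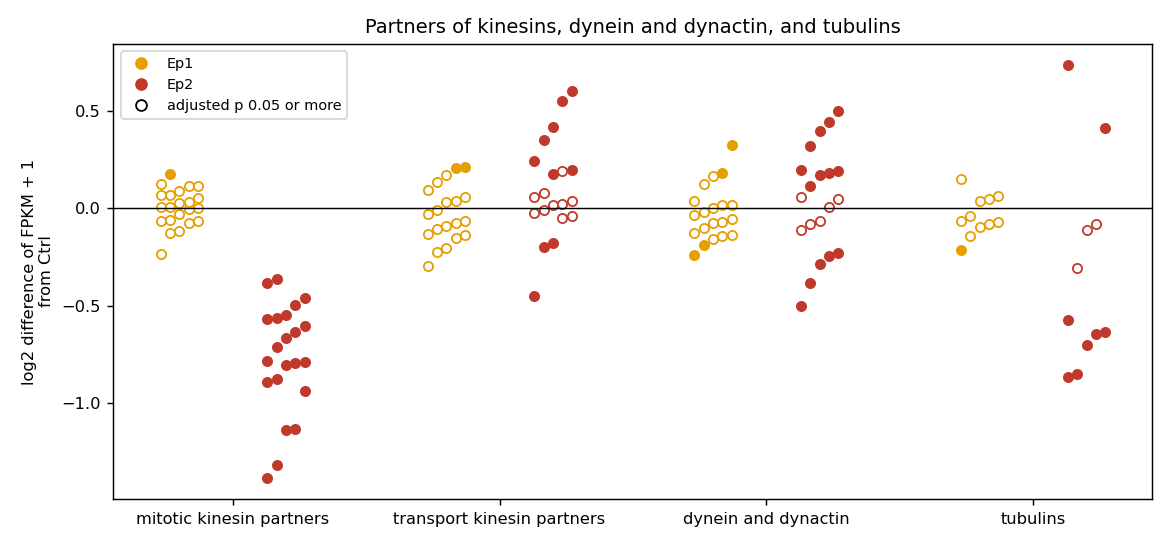
Log2 fold change of FPKM + 1 against Ctrl of each tested gene (points) in 4 lists, for Ep1 (yellow) and Ep2 (red); open circles mark an adjusted p of 0.05 or more in limma. All 22 partners of mitotic kinesins lie below 0 in Ep2, whereas partners of transport kinesins and dynein genes lie on both sides, and 6 of 11 tubulins are called lower.

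For several tested kinesins another gene at 1 FPKM or more overlaps on the opposite strand, among them Cdc23 for Kif20a, Dimt1 for Kif2a, Pdzd11 for Kif4, Mettl15 for Kif18a, 1110002L01Rik for Kif3c and Ticrr for Kif7. The sources used here do not state whether counting used strand, so reads in the shared stretches cannot be told apart and the levels of such genes are less certain.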

How the data were processed

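RNA sequencing libraries (Illumina, paired-end) of 3 Ctrl, 3 Ep1 and 3 Ep2 samples were used, grouped by their labels. The deposited values are FPKM, which the authors made from aligned reads by dividing fragments by gene length and library size. The methods name GRCm39 and the submitters' processing notes list mm8 and Bowtie 0.12.2, while the listed coordinates of 41 of 41 kinesin genes overlapped the gene on GRCm38 (13 on GRCm39), so positions are given on GRCm38. The counting tool is not given in the sources used here, and the growth protocol calls the cells rat while the other labels say mouse. The 9 single-library tables held the values of the joint table.

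From FPKM, log2(FPKM + 1) was calculated for 11727 genes with at least 1 FPKM in at least 3 libraries and fitted with limma 3.58.1 in R 4.3.3 (lmFit over all 9 libraries, no covariate, eBayes with trend and robust estimation), with Benjamini-Hochberg adjustment within each of 3 comparisons. FPKM times length gave whole fragments for 100% of values within a tolerance of 0.05, with totals of 16240688 to 19509225 per library. Limits for a count of 0 were set at 3 fragments and cover counting error only. The scripts were tested on simulated data. All kinesin members are named, and of each partner list the 2 lower and 2 higher genes with the smallest adjusted p in Ep2. Names beyond that rule, given where 5 or fewer genes were called or as uncalled or related genes, were chosen after their values were seen. Members and lists were chosen with earlier results of these data known. Promoters came from RefSeq (GRCm38.p6) and were matched to 32 of 41 genes. Alternatives were median centring, no filter, a minimum of 5 FPKM, a pseudocount of 0.1, a replicate block, only the groups compared, voom on recovered fragments, each library left out, and, added after seeing the data, a correction for length and GC content. Python 3.11.15, numpy 2.4.6, pandas 2.3.3 and matplotlib 3.10.9 were also used.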

Additional observations from a re-analysis of the deposited data

How the results depend on the processing

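The fall of the mitotic kinesins in Ep2, against Ctrl and against Ep1, was called for every member tested under all alternatives. That count was 12, or 9 of 9 with the minimum of 5 FPKM. Kif15, Kif18b, Kif23 and, of the other class, Kif24 had values smaller than the DEG threshold of 0.6 in size under at least 1 alternative (-0.58, -0.58, -0.58 and -0.57), so the number of DEGs is less certain than the number of calls.

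The number of mitotic kinesins called in Ep1 (2 of 12) was 0 without a filter and 1 with the length and GC correction. It was 3 with only the groups compared and with voom, and 0 to 3 when a library was left out. With the stricter filter it was 1 of 9, as Kif18a was not tested. Over all tested genes, 583 were lower and 741 higher in Ep1. These counts were 154 and 242 of 26717 without a filter and 380 and 569 with the length and GC correction. They were 1009 and 1153 with only the groups compared, 844 and 1078 with voom, and 78 to 1000 and 111 to 1183 when a library was left out. For transport kinesins, the number in Ep1 (1 of 11) was 2 with voom, which tested 13. The number in Ep2 against Ctrl (7) was 3 with the stricter filter, which tested 5. The number between the doses (7 of 11) was 3 of 14 without a filter and 3 of 5 with the stricter filter. It was 3 with only the groups compared, and 3 to 8 when a library was left out. Over all tested genes, 2206 were higher between the doses. That count was 1977 of 26717 without a filter, 1591 of 7535 with the stricter filter, 1945 with only the groups compared, and 1673 to 2231 when a library was left out. The median difference of mitotic and transport kinesins in Ep2 (-0.943) was -1.122 with the stricter filter, -1.111 with the pseudocount of 0.1 and -1.175 with voom. Causes other than the set of genes tested were not tested.

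Values near 0, none of them called, changed sign. With the length and GC correction Ep1 values were -0.032 for Kif11, 0.0008 for Kif18b, -0.037 for Kif15, 0.037 for Kif13a, 0.0017 for Kif7 and 0.0042 for Kif19a, and Kif16b was -0.0002 in Ep2 against Ctrl. Kif16b between the doses was 0.047 with median centring, and Kif14 in Ep1 was 0.0012 with voom. Among fits without a library, the ranges that crossed 0 were -0.012 to 0.196 for Kif1c in Ep2, -0.039 to 0.044 for Kif20b in Ep1, -0.088 to 0.016 for Kif22 in Ep1, -0.0478 to 0.0404 for Kif16b between the doses, -0.014 to 0.017 for Kif14 in Ep1, -0.0018 to 0.0835 for Kif13b in Ep2 and -0.0448 to 0.0079 for Kif13a in Ep1.

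No pairing by replicate number was seen in the deviations from the group means. Same-numbered libraries of different groups correlated between -0.0565 and 0.0744, and other pairs between -0.1081 and 0.1529. With 3 libraries a group these values cannot exclude pairing, and the labels do not state it. A fit with the replicate number as a block gave 12 mitotic calls in Ep2, and 6 and 5 transport calls against Ctrl and Ep1, and, over 87 single values, lost 3 calls, those of Kif13a (adjusted p = 0.0506 and 0.0507) and Kif13b (0.0678). Tested members rested on as few as 70 fragments in a library, and counting error is relatively largest for the weakest of them.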

Other observations

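Some kinesins carry names outside the rule that chose the family. Cenpe, the motor that brings late chromosomes to the metaphase plate and 1 of the 22 tested partners above, was at 13.2, 13.0 and 13.6 FPKM in Ctrl, 12.3, 13.8 and 13.9 in Ep1 and 6.79, 6.67 and 6.92 in Ep2. Its Ep2 libraries lay wholly below the others (log2 fold change -0.87 against Ctrl, limma adjusted p = 4.5e-06). Kifc5b, the near copy of Kifc1, was at 12.7 ± 0.925, 10.0 ± 0.915 and 7.26 ± 1.77 FPKM (SD, n = 3). Stard9, a large spindle motor counted among the transport partners, was at 1.65 ± 0.026, 1.27 ± 0.031 and 1.80 ± 0.070 FPKM, so that the Ep1 libraries were the low ones, and neither dose was called against Ctrl (adjusted p = 0.0533 and 0.329). The pseudogenes Kif22-ps and Kif4-ps had no fragment in any library.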
